A study of Mus musculus with 2 samples.

Results

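The genes described here, Pabpc1, Pcbp2, Ybx1 and Ubap2l, encode proteins that bind mRNA in the cytoplasm. They were chosen as genes with several peaks in these data, and every peak whose midpoint lay in a gene's span, or within 10 kb of it, was taken. Together the 4 genes, of 21887 protein-coding genes on the chromosomes, held 24 of the 2251 peaks of the WT list and 0 of the 1153 peaks of the KO list. Because the peaks themselves chose the genes, their number, position, width and score are given as a description, with no test.

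The peaks come from chromatin immunoprecipitation with sequencing (ChIP-seq) with a KLF4 (GKLF) antibody on frozen BCA tissue from atherosclerotic lesions of mice. The comparison asks which sites recovered with the antibody in WT lesions were also recovered in KO lesions. Both groups were C57BL/6 mice on a Western diet, and each group, WT and KO by label, had 1 library. The deleted gene, the cells in which it was deleted, the age of the mice and any pooling of animals are not stated in these sources. The labels describe the tissue as mixed, holding epithelial cells, macrophages, smooth muscle cells and others, so no peak can be assigned to a cell type, and a peak list offers no marker levels with which to check the tissue. With a single library a group there was no replicate error, and every difference below is one between these 2 lists.

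KLF4 is a zinc finger transcription factor that binds GC-rich and CACCC-type DNA and is known in smooth muscle as a repressor of contractile genes. An mRNA in the cytoplasm is covered by binding proteins that set how long it lasts and how well it is translated. PABPC1 coats the poly(A) tail and links it to the translation initiation machinery. PCBP2 binds C-rich stretches through KH domains and acts on mRNA stability and translation. YBX1 packages mRNA through a cold-shock domain, and is also known as a repressor of the smooth muscle actin gene. UBAP2L is a ubiquitin-associated domain protein that takes part in forming stress granules, the condensates in which untranslated mRNA collects.

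Upstream sequences are shown first because KLF4 is a DNA-binding factor and no WT peak of these genes overlapped them. RefSeq promoter windows of build GRCm38.p6 were matched for 3 of the 4 members, Pcbp2, Ybx1 and Ubap2l. The 250 bases upstream of the annotated start nearest to a WT peak are printed 5′ to 3′ on the gene's strand. Capitals mark CACCC and CCCGCCC on either strand (GGGTG and GGGCGGG as reverse complements), and copies may overlap. These lie at chr4:119294514-119294763 (Ybx1, minus strand), chr15:102470382-102470631 (Pcbp2, plus strand) and chr3:90052481-90052730 (Ubap2l, minus strand).
Ybx1: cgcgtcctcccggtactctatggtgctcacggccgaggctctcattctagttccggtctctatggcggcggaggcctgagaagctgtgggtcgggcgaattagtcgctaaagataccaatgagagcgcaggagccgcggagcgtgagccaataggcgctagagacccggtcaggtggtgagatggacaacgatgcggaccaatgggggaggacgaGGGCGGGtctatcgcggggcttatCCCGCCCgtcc
Pcbp2: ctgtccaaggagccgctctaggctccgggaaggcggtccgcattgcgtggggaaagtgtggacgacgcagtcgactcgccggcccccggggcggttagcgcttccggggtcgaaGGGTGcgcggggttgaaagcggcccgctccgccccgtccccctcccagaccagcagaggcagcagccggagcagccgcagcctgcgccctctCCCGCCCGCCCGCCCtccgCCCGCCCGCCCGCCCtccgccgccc
Ubap2l: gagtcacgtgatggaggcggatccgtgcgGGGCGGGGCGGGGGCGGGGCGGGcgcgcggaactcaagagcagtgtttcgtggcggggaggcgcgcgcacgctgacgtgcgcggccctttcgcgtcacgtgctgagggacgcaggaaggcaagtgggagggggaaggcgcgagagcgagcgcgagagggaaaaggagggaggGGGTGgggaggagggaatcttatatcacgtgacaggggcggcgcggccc

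Each of the printed sequences held CCCGCCC, and those of Pcbp2 and Ubap2l also held CACCC. The Ybx1 sequence had 2 matches to CCCGCCC and 0 to CACCC. The Pcbp2 sequence had 6 and 1, while the sequence before its other annotated start had 0 and 1, and the Ubap2l sequence 4 and 1. Over the 32851 promoter windows of the RefSeq table, 52.0% held CACCC and 23.4% held CCCGCCC in their 250 upstream bases. The median number of matches was 1 for CACCC and 0 for CCCGCCC. These values were not matched for GC content. GC content was 62.8% in Ybx1, 76.4% in Pcbp2 and 71.2% in Ubap2l, against a median of 52.4% over all windows. The nearest WT peak lay 111 bp from the Ybx1 sequence, on the gene side of the start, 2.65 kb from that of Pcbp2 and 4.60 kb from that of Ubap2l. In the whole list, 38 of the 32851 full windows (250 bases before to 50 after a start), or 0.116%, overlapped a WT peak. A match to a motif is a description of the sequence and not a binding site.

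All 24 peaks lay inside the gene spans, and none overlapped another annotated gene. The rule would also have admitted peaks in the 10 kb flanks on either side, where neither library had a peak. Within 10 kb, 6.22% of all protein-coding genes had a WT peak, 2.34% had a KO peak, and 5.51% had a WT peak with no KO peak, as all 4 members did. A WT peak count of 3 or more in the span with no KO peak within 10 kb was found for 0.471% of protein-coding genes. The members were picked for such counts, so nothing is read from these shares. The nearest WT peak beyond the 10 kb limit lay 29.8 kb from Ybx1, in P3h1 (score 86.4), 160 kb from Ubap2l, in Rps27 (54.9), 162 kb from Pabpc1, in Ywhaz (94.3), and 386 kb from Pcbp2, in Eif4b (108). The nearest KO peak was farther in each case, at 349 kb from Pabpc1, 423 kb from Ybx1, 743 kb from Pcbp2 and 1811 kb from Ubap2l. Since the depth of both libraries is unknown, an absent KO peak shows no more than that the authors' threshold was not passed there.

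The score of a peak is the peak caller's own value, read here as −log10 of its p-value multiplied by 10, and it ranks peaks within a list. Scores of the 24 peaks ran from 55.1 to 700 with a median of 99.1, beside a median of 88.3 over the WT list. Of the 24, 16 scored at or above that list median, 12 scored at least 100, and 3 were among the 226 peaks in the highest 10% of the list, which began at 292. Those 3 peaks were the strongest of Pabpc1 and the strongest pair of Ybx1. The genes thus had different profiles, with few high peaks in Ybx1, many peaks of mixed score in Pabpc1 and Pcbp2, and mostly low peaks in Ubap2l.

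**Figure D1:**
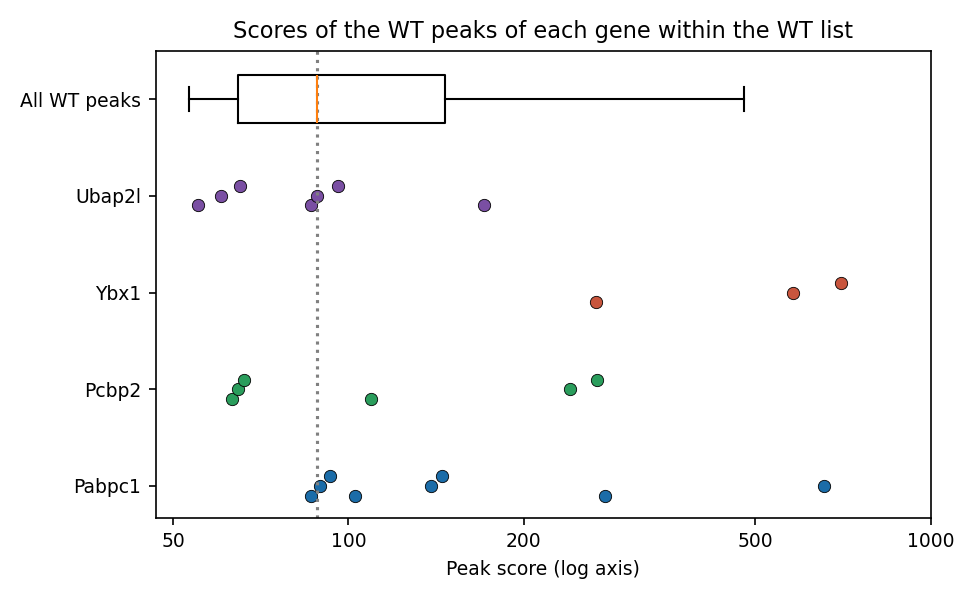
Scores of the WT peaks of Pabpc1, Pcbp2, Ybx1 and Ubap2l (points, spread vertically for legibility only) and of all 2251 WT peaks (box, middle 50% with the median line; whiskers, 5th to 95th percentile), on a log axis. The dotted line is the list median of 88.3; all 3 Ybx1 peaks lie to its right, and the highest peak of Ubap2l, at 171, lies left of all 3.

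Pabpc1 (gene 18458, chromosome 15, 36595658 to 36609581) was the most densely covered of the 4 genes. Its 8 WT peaks fell on a span of 13.9 kb, which is 5.75 peaks per 10 kb and 9.90% of the span under a peak. The strongest lay at 36608313 to 36608541, was 229 bp wide and scored 656, and 96.9% of the WT list scored lower. Its score was 2.38 times the next, 276, at 36605803 to 36605963. These are ratios of scores within 1 list and not of binding levels.

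Most of the 8 peaks of Pabpc1 formed a lower and an upper group. These lay 18.9% to 26.5% and 91.7% to 95.4% of the way from the lower-coordinate end, with other peaks between them. In the lower group, peaks at 36598201 to 36598384 (score 86.2), 36598939 to 36599086 (139) and 36599208 to 36599475 (145) followed each other with midpoints 0.720 and 0.329 kb apart. A single peak at 36601250 to 36601408 (89.5) stood 1.99 kb further on. After a gap of 4.55 kb came the peak of score 276, and 2.54 kb beyond it the strongest peak. Beside the strongest peak lay 2 narrow ones, at 36608753 to 36608847 (92.8) and 36608877 to 36609010 (102), separated from each other by 29 bp. With the span divided into 3 equal parts from its lower end, the counts were 3, 1 and 4. Midpoint spacing had a median of 0.720 kb, the shortest of the 4 genes, and the peaks together reached over 77.6% of the span.

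Ybx1 (gene 22608, chromosome 4, 119277327 to 119296265, minus strand) had the fewest peaks and the highest score. Its 3 WT peaks fell on 18.9 kb, or 1.58 peaks per 10 kb. The strongest lay at 119278926 to 119279167 where it scored 700 over 242 bp, and the second at 119282138 to 119282476, where it scored 581 over 339 bp, the widest of the 24. Both lay in the 3′ part of the gene, 90.9% and 73.7% of the way from its 5′ end. These percentages count from the 5′ end of the span, at 119296265, while the 1 annotated start used lies inside the span, at 119294513. The third peak, at 119294251 to 119294402 with a score of 267, had its midpoint 187 bp downstream of the annotated start. It was the only one of the 16 peaks of Pcbp2, Ybx1 and Ubap2l within 500 bp of an annotated start. Between it and the other two peaks, 11774 bp of the gene held no peak. All 3 Ybx1 peaks scored above the list median, and the lowest of them scored higher than 88.6% of the WT list.

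The single pseudogene that the RefSeq table names as a -ps copy of Ybx1 also carried WT peaks. Ybx1-ps2 (gene 94283, chromosome 6, 37685637 to 37687305) is a pseudogene, a disabled copy of a gene, of 1669 bp. It had 2 WT peaks and 0 KO peaks, and the nearest KO peak lay 51.5 kb away. One peak, at 37686681 to 37686994, was 314 bp wide and scored 662, which lies between the scores of 700 and 581 in Ybx1 itself. The other, at 37686005 to 37686149, was 145 bp wide and scored 59.7, lower than any Ybx1 peak. The midpoints were 760 bp apart, compared with 3.26 kb between the strongest peaks of Ybx1, and the peaks covered 27.5% of the copy. Among all 10429 pseudogenes, 2.99% had a WT peak, 0.623% had 2 or more, and 0.211% had a KO peak. The sources do not say how reads that match both a gene and its copy were placed, and the part of such reads in these scores was not tested. The table names 0 -ps copies for Pabpc1, Pcbp2 and Ubap2l. Copies of the 4 genes under other names were not searched for.

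**Figure D2:**
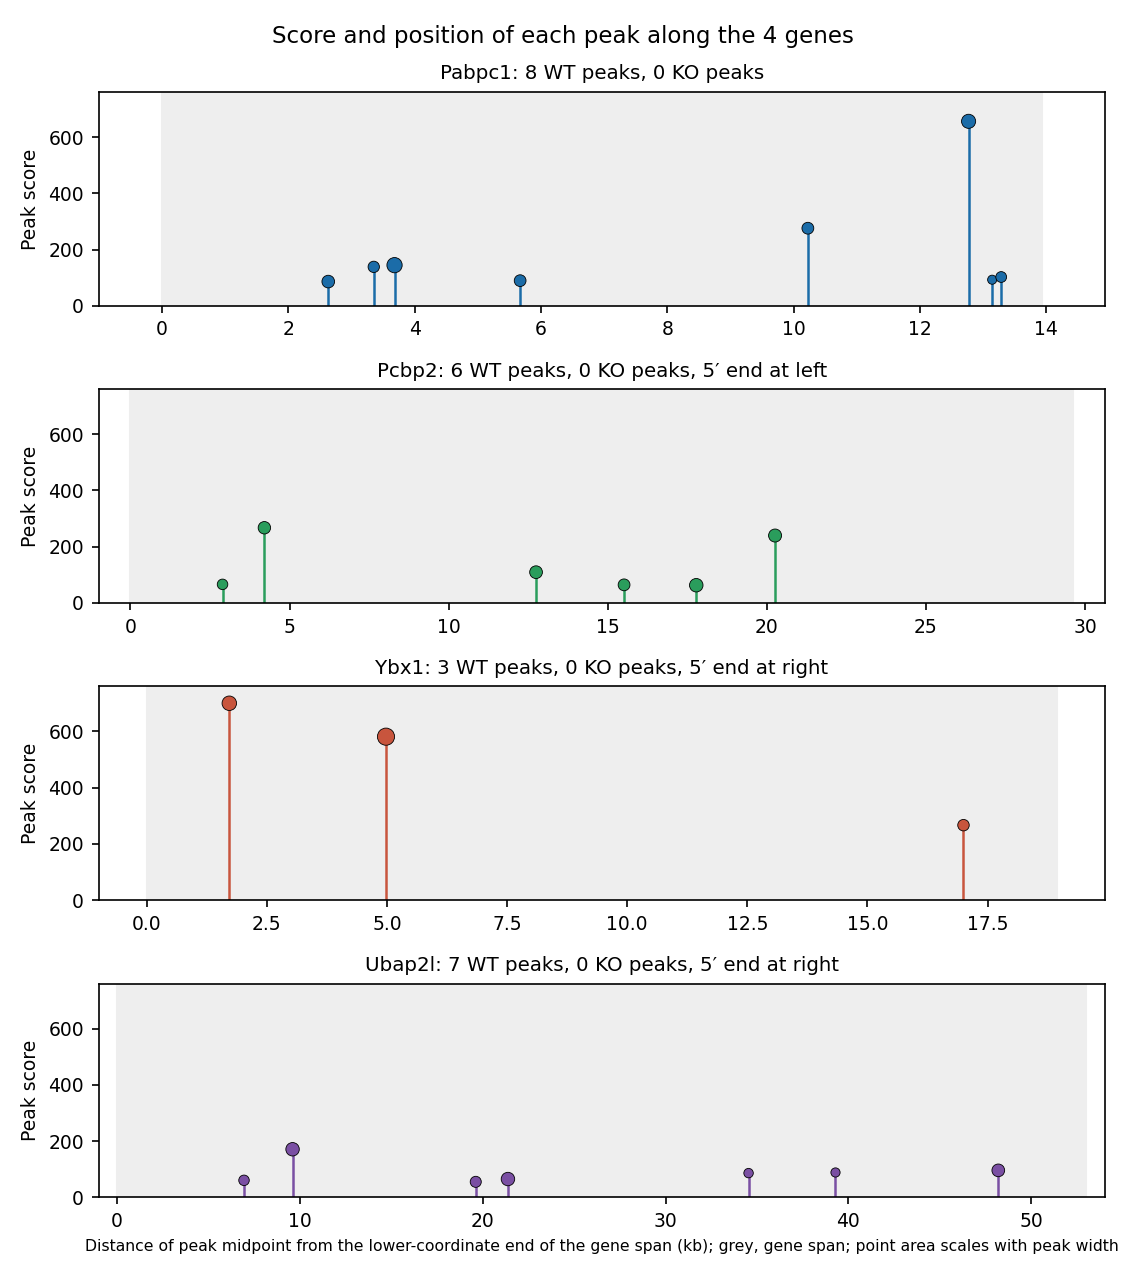
Score (vertical axis) and position (horizontal axis, kb from the lower-coordinate end of the gene span) of each WT peak in Pabpc1, Pcbp2, Ybx1 and Ubap2l; grey marks the span and point area scales with peak width. Most Pabpc1 peaks gather in a lower and an upper group, with other peaks between them. The strongest Ybx1 peaks at 700 and 581 lie in the 3′ part, and Ubap2l peaks are spread over the gene with scores of 55.1 to 171.

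Pcbp2 (gene 18521, chromosome 15, 102470450 to 102500068, plus strand) carried 6 WT peaks on 29.6 kb, or 2.03 per 10 kb. Its strongest peaks were close in score and far apart in position. They lay at 102474570 to 102474747 (score 267, 178 bp wide) and 102490611 to 102490805 (score 240, 195 bp wide), which is 14.2% and 68.4% of the way from the 5′ end. A peak of intermediate score, 109, lay at 102483103 to 102483289, near the middle of the span. The other three, at 102473280 to 102473407 (66.2), 102485882 to 102486042 (64.5) and 102488127 to 102488336 (63.2), scored below the list median. The last 31.6% of the gene, towards its 3′ end, held no peak midpoint. Spacing had a median of 2.48 kb and a longest value of 8.54 kb.

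Ubap2l (gene 74383, chromosome 3, 89999589 to 90052609, minus strand) was the longest of the 4 genes and had the lowest scores. Its 7 WT peaks fell on 53.0 kb, or 1.32 per 10 kb, and reached over 78.1% of the span. The strongest, at 90009090 to 90009297, scored 171 and lay 81.9% of the way from the 5′ end. The other 6 peaks scored 55.1 to 95.8, and the lowest of them, at 90019141 to 90019281, was near the list's minimum of 50. In 3 equal parts of the span from the lower end the counts were 2, 3 and 2, with a median spacing of 6.83 kb. The peak nearest to an annotated start, at 90047696 to 90047881, had its midpoint 4.69 kb downstream of it. With a score of at least 100 required, a limit chosen after the data were seen, Ubap2l kept 1 of its 7 peaks, Pcbp2 3 of 6, Pabpc1 5 of 8 and Ybx1 3 of 3.

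Median peak width was within the middle 50% of the WT list, 127 to 204 bp, in each gene but Ybx1, where it was higher. Width ran from 95 to 339 bp with a median of 170 bp, beside a WT list median of 156 bp. Median width was 242 bp in Ybx1, 183 bp in Pcbp2, 160 bp in Pabpc1 and 141 bp in Ubap2l, and 7 of the 24 peaks were wider than 200 bp. Over the 24 peaks, width and score had a Spearman rho of 0.48, and width and the log10 of the score a Pearson r of 0.59. These points share a library, and both values come from the same peak call. Of the 20 pairs of neighbouring peaks within a gene, 4 had midpoints less than 1 kb apart, all of them in Pabpc1.

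Among the 829 protein-coding genes with a WT peak in their span, 592 (71.4%) had 1 peak, and the median was 0.460 peaks per 10 kb of a median span of 30.2 kb. Each of the 4 members was above that density, having been chosen for several peaks. A count of 8 or more, reached by Pabpc1, was found in 7 genes, or 0.0320% of all protein-coding genes, and a count of 6 or more in 15, or 0.0685%. Genes like a member were sought by the same number of WT peaks, no KO peak in the span and the closest span length. For Pcbp2, the closest among 6 other genes with 6 peaks were Tpm1, a tropomyosin gene (27.1 kb, scores 169 to 347), and Chd4, a chromatin remodeller gene (34.6 kb, 55.4 to 110). For Ybx1, those among 55 other genes with 3 peaks were Arf1 (16.9 kb, 62.4 to 108), which encodes a small GTPase of vesicle transport, and Igfbp5 (16.8 kb, 100 to 369), which encodes a binding protein of insulin-like growth factors. The highest score of both was below the 700 of Ybx1. No other gene had 7 WT peaks and no KO peak in its span, as Ubap2l did. Likeness was judged on 1 library a group.

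**Figure D3:**
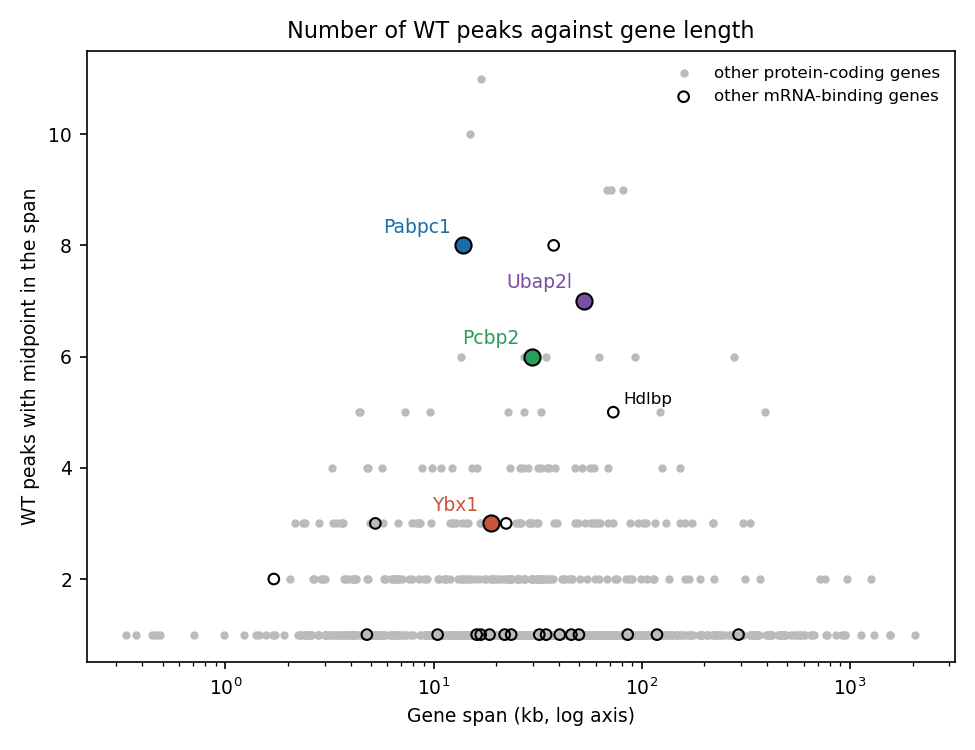
WT peaks with a midpoint in the span (vertical axis) against gene span (kb, log axis) for the 829 protein-coding genes with a WT peak; large coloured points are the 4 members, open circles the other mRNA-binding genes. Pabpc1, with 8 peaks on 13.9 kb, lies near the top, and 592 of the genes have 1 peak.

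A list of 60 other genes for cytoplasmic mRNA-binding proteins and their partners gives the setting of the members. Within 10 kb, 23 of them had a WT peak (38.3%, beside 6.22% of all protein-coding genes) and 5 a KO peak (8.33%, beside 2.34%). In their own span, 20 had a WT peak (33.3%, beside 3.79% of all protein-coding genes) and 4 a KO peak (6.67%, beside 1.63%). The share was above that of all protein-coding genes in both lists, though the KO shares rest on 5 and 4 genes, and no test was made. This gene list was chosen with earlier results of these data known and was not matched for gene length. The shares are therefore given as a description only. The 36 WT peaks in these spans scored 51.0 to 270, all below the strongest peaks of Ybx1 and Pabpc1. The highest of them, in Serbp1, scored above the strongest peaks of Pcbp2 (267) and Ubap2l (171). Of the 20 genes, 15 had a single peak. With only peaks at or above the list median, or with the WT list cut to its 1153 highest peaks, 13 of the 60 genes had a WT peak within 10 kb in place of 23. The share of all protein-coding genes under these limits is not given here, so the fall is not set against theirs.

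Relatives of the members differed in how many peaks they carried. The poly(A) group of 13 genes, which holds the Pabpc1 paralogs, had WT peaks at 2 genes and KO peaks at 0. These were Pabpn1, which encodes the nuclear poly(A) binding protein (1 peak, score 120), and Paip2, which encodes an inhibitor of PABPC1 (1 peak, 67.5). The Pabpc1 paralogs Pabpc2, Pabpc4, Pabpc5, Pabpc6, Pabpc1l and Pabpc4l had none in either list. Of the 3 other poly(C)-binding genes, Pcbp1 had 2 WT peaks on its short span of 1.71 kb, with scores of 265 and 80.9, Pcbp3 had a KO peak alone (52.4), and Pcbp4 had none. The score of 265 in Pcbp1 was close to the 267 of the strongest Pcbp2 peak. In the cold-shock and packaging group, 4 of 7 genes had a WT peak and none had one in KO. Among them, Serbp1, an mRNA-binding protein gene, had 3 (51.0 to 270), and the Ybx1 paralog Ybx3 (77.7) and Strap (122) had 1 each.

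Most partners of UBAP2L and genes of mRNA transport and decay had no WT peak in the span, and most of those with one had a single peak. In the stress granule group, 6 of 11 genes had a WT peak within 10 kb, and 5 of them in the span, namely Nufip2 (176), Atxn2l (145), Caprin1 (81.9), Tial1 (81.8) and G3bp2 (69.0), with 1 each. The peak counted for Ubap2, the paralog of Ubap2l, lay 3.60 kb outside the gene, in Ube2r2 (97.7). Of the 9 genes of mRNA transport, which include the family of the fragile X protein FMRP, 3 had a WT peak. Hdlbp, the gene of the multi-KH-domain protein vigilin, had 5 (54.1 to 142), and Stau2 (57.2) and Fxr1 (55.7) had 1 each. In the stability and decay group of 17, 5 genes had a WT peak in the span. Among them, Zfp36l1, whose product binds AU-rich elements, had 3 (60.3 to 166), and Khsrp (153), Lsm14a (74.8) and Elavl1 (59.8) had 1 each. The peaks counted for Lsm14b and Eif4enif1 lay outside these genes, in Psma7 (134) and Sfi1 (59.8 to 155). G3bp2, Elavl1 and the peaks outside spans are named after their values were seen, to complete the counts.

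**Figure D4:**
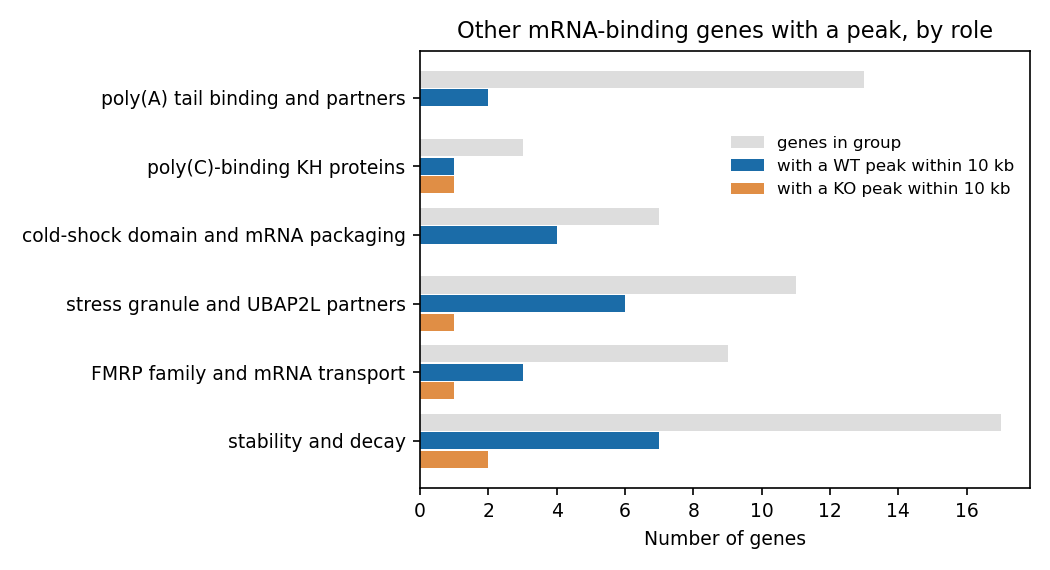
Number of genes (horizontal axis) in each role group of the 60 other mRNA-binding genes (grey), with a WT peak within 10 kb (blue) and with a KO peak within 10 kb (orange). Genes with a WT peak number 2 of 13 in the poly(A) group and 4 of 7 in the cold-shock group, and the KO bars reach at most 2.

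A few of the 60 genes had peaks in both lists. Peaks of WT and KO were both found within 10 kb of 3 of the 60. The WT peak of Nufip2 (chromosome 11, 77686157 to 77686510, score 176) overlapped a KO peak at 77686249 to 77686413 (53.5). The WT peak of Stau2 (chromosome 1, 16342910 to 16343067, score 57.2) overlapped a KO peak at 16342919 to 16343100 (80.7). The third, Eif4enif1, was counted through peaks in Sfi1, which held 2 KO peaks there. So 2 of the 36 WT peaks in spans of the 60 genes overlapped a KO peak, and 0 of the 24 of the members did. This difference was not tested, since the members were chosen from these lists. The share of all 2251 WT peaks that overlap a KO peak is not given here. Neither count is therefore read as a trait of these genes. Edc4 (51.3), like Pcbp3, had a KO peak alone, and both scores lay near the lowest of the KO list, 50.03.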

How the data were processed

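Reads were handled with Bowtie 1.0 and SAMtools 0.1.18 on mouse build mm10, per the submitters' processing notes. The authors deposited 1 MACS peak list per library, named as such in the files. Its version, control and settings, and how duplicates or reads with several matches were handled, are not stated in these sources. The deposited score of each peak was taken as −log10 of a p-value multiplied by 10. The lowest score, 50 in WT, corresponds to 1e-05. No read counts were given, so depth is unknown and no interval or floor can be set.

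Peak starts were converted to 1-based positions. Genes and pseudogenes came from the RefSeq table of GRCm38.p6, which shares the chromosome coordinates of mm10, and strand and starts from RefSeq promoter windows. The tables used give no exons. Peaks were assigned by midpoint, and lists were compared by overlap of at least 1 bp. The assignment was tested on simulated peaks in 200 genes, all of which were recovered. The members and lists were chosen with earlier results of these data known. Named genes are the members, up to 4 per role group by highest score in the span, every -ps copy with a peak, and up to 2 genes per member with the same WT peak count, 0 KO peaks in the span and the closest length. Some genes that this rule names are not reported here. The rule showed a promoter only where a peak overlapped it. None did, and the sequences printed were chosen after the data were seen. Computation used Python 3.11.15 with pandas 2.3.3, numpy 2.4.6 and scipy 1.17.1, and figures matplotlib 3.10.9. Alternatives covered the window, overlap rule, score limit, list size and pseudogene peaks.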

Additional observations from a re-analysis of the deposited data

How the results depend on the processing

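The count of 24 WT peaks and 0 KO peaks in the 4 genes was the same with the span alone, with flanks of 2500 bp or 25 kb, and with any overlap. The WT count was 16 when peaks below the median score were dropped, and also with the WT list cut to the size of the KO list, and 12 with a score of at least 100, a limit added after the data were seen. No WT peak of the members overlapped a KO peak under any of the 4 overlap rules, up to 5 kb apart. Neither these rules nor the flanks could have changed the KO result, since the nearest KO peak lay at least 349 kb from each gene. Of the 60 other genes, 20 to 26 had a WT peak under the other windows, 23 without peaks in pseudogene spans, and 13 both when peaks below the median score were dropped and with the reduced WT list. The settings with a score limit or a shorter list keep fewer peaks by construction. Shares of all protein-coding genes under those settings are not given here. Ybx1-ps2 kept a WT peak in all settings run. The search for pseudogenes by description was not run, because the table gives no descriptions. No paired analysis was possible because each group has 1 library and no result comes from a test. A difference of depth between the libraries cannot be told apart from a difference of genotype.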
